A study of Mus musculus with 8 samples.

Results

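The genes described here are 49 genes of the actin cytoskeleton and of cell motility, measured by RNA sequencing in monocytic cells sorted from mouse bone marrow. They were taken by gene symbol from the table of read counts, in which all 49 of the 49 listed symbols were found among 16160 genes, and all 49 were among the 13211 genes with enough reads to be tested. The rule that names them uses no expression value, but the list was chosen with earlier results of these data known. The shares of calls given below therefore describe this list. The cells came from wild-type C57BL/6 mice and were sorted as CD11c-CD11b+Ly6G-SiglecF-Ly6Chi and then by CD115, the receptor for the growth factor CSF1 on the surface of most monocytes. The 4 groups were CD115- cells of mice bearing a subcutaneous EL4 lymphoma (tCD115-), CD115+ cells of the same kind of host (tCD115+), CD115- cells of naive mice (nCD115-) and CD115+ cells of naive mice (nCD115+), with 2 libraries in each group. EL4-bearing mice were used on day 21 after inoculation, where these monocytic cells are called monocytic myeloid-derived suppressor cells (M-MDSCs), and the naive mice received no tumor. The study's methods name male or female mice, its reporting form names male mice, and neither gives the sex for these libraries. No source used here says whether cells of several mice were pooled for a library. Comparing CD115- with CD115+ cells within a host asks how the 2 subsets differ, and comparing EL4 with naive hosts asks what a tumor changes in each subset.

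Actin is a globular protein that assembles into filaments, and a cell crawls, engulfs and changes shape by building filaments at its front, bundling them, pulling on them with myosin and taking them apart again. Thymosins and profilin hold the unassembled monomers, the Arp2/3 complex starts new branches on old filaments, formins and Ena/VASP proteins lengthen filaments, capping proteins stop their growth, and gelsolin and cofilin sever them. Alpha-actinins, filamin and plastin cross-link filaments, and talin and vinculin tie them to integrins. Monocytes and neutrophils depend on this system to leave the marrow, to enter tissue and to phagocytose.

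The library totals lay between 69692398 and 95353798 counted reads. Values below are counts scaled to library size with TMM factors (CPM) when 1 gene is compared between libraries, and the deposited FPKM, which also divide by transcript length, when different genes are compared. A gene is called where its adjusted p was under 0.05 in the quasi-likelihood test of edgeR, fitted on the counts of all 8 libraries and corrected by the Benjamini-Hochberg method over all 13211 genes. With 2 libraries against 2, an exact permutation test of a single value cannot give a two-sided p under 0.333, so each call rests on the spread that the fit shares across genes. Csf1r, which encodes CD115, stood at 283 and 490.3 CPM in tCD115- cells and at 891 and 869 CPM in tCD115+ cells. In naive mice it stood at 825 and 728 CPM in nCD115- cells and at 1159 and 1333 CPM in nCD115+ cells. In each host both CD115- libraries lay below both CD115+ libraries, though Csf1r mRNA was plainly present in all of them, with a log2 fold change of -1.19 (SE 0.23, adjusted p = 0.00634) in EL4-bearing mice and of -0.68 (SE 0.22, adjusted p = 0.0805) in naive mice.

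Neutrophil, T and NK cell and monocyte markers moved with the CD115 sort and stand beside every result on it. All 16 of 16 neutrophil and neutrophil-precursor markers on the list were detected, and their summed level was 117906 and 72535 CPM in the 2 tCD115- libraries, against 3119 and 2564 CPM in the tCD115+ libraries. In naive mice the sum was 50692 and 66071 CPM in nCD115- libraries, against 1679 and 1463 CPM in nCD115+ libraries, and of the 16 markers 15 were called higher by at least 2-fold in tCD115- and 13 in nCD115- cells. The remaining 1 of the 16 was called lower in tCD115- cells, with a log2 fold change of -0.68. The 12 monocyte markers summed to 7979 and 11893 CPM in tCD115- libraries, against 18589 and 17264 CPM in tCD115+ libraries, and 9 of the 12 were called lower and 1 higher. In naive mice they summed to 14893 and 14657 CPM in nCD115- libraries, against 18577 and 21809 CPM in nCD115+ libraries. There 11 of the 12 had negative log2 fold changes, but only 1 was called lower and 1 was called higher. T and NK cell markers summed to between 55.8 and 116 CPM in CD115- libraries, against 6.43 to 8.43 CPM in CD115+ libraries, and 10 of 11 were called higher in tCD115- cells. Megakaryocyte and platelet markers, of interest because platelets are rich in alpha-actinin 1, vinculin and gelsolin, summed to 7.31 to 16.5 CPM in CD115- libraries, against 2.10 to 3.06 CPM in CD115+ libraries. Of the 8 tested, 3 were called higher and 1 lower in tCD115- cells, and 1 was called higher in nCD115- cells, where their median log2 fold change was -0.22. Of 8 B cell markers and 7 tested erythroid markers edgeR called 0 between subsets in either host (at an unadjusted p under 0.05, 1 of each in EL4-bearing and 0 in naive mice, and by DESeq2 0 B cell markers and 2 and 1 erythroid markers). Of 10 markers of cycling cells 1 was called higher in tCD115- and 3 in nCD115- cells, and of 7 tested endothelial, stromal and smooth muscle markers 1 was called higher in each host. The gate was set to leave out Ly6G+ cells, and Ly6g mRNA stood at 44.3 and 26.7 CPM in tCD115- libraries, against 0.98 and 0.468 CPM in tCD115+ libraries, and at 20.3 and 25.0 CPM in nCD115- libraries, against 0.36 and 0.45 CPM in nCD115+ libraries. The part of these markers in the results below was not tested, and in bulk libraries a change in the number of cells of a type and a change in RNA per cell cannot be told apart.

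The 49 genes took an almost fixed share of the RNA. They held 4.76% and 5.02% of all reads in tCD115- libraries and 4.86% and 4.94% in tCD115+ libraries, with 4.88% and 4.96% in nCD115- libraries and 4.83% and 4.84% in nCD115+ libraries, so the spread between the 2 tCD115- libraries was wider than the gap between any of the 4 group means. Levels in single libraries ran from 0.800 FPKM for Actn1 to 7383 FPKM for Tmsb4x, as the plot of levels by role shows. Of the 49 genes, 7 averaged at least 1000 FPKM over the 8 libraries, 29 averaged 100 to 1000 FPKM, 12 averaged 10 to 100 FPKM, and Sh3pxd2b alone averaged under 10 FPKM. For 35 of the 49 the highest group mean was less than 1.5 times the lowest, and for 8 it was at least 2 times the lowest. Near-identical copies that are no row of the table cover 57.9% to 91.5% of the longest transcript of Actg1, Actr3, Capza1, Tmsb10 and Tpm3, so the reads of these 5 genes are less certain.

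**Figure D1:**
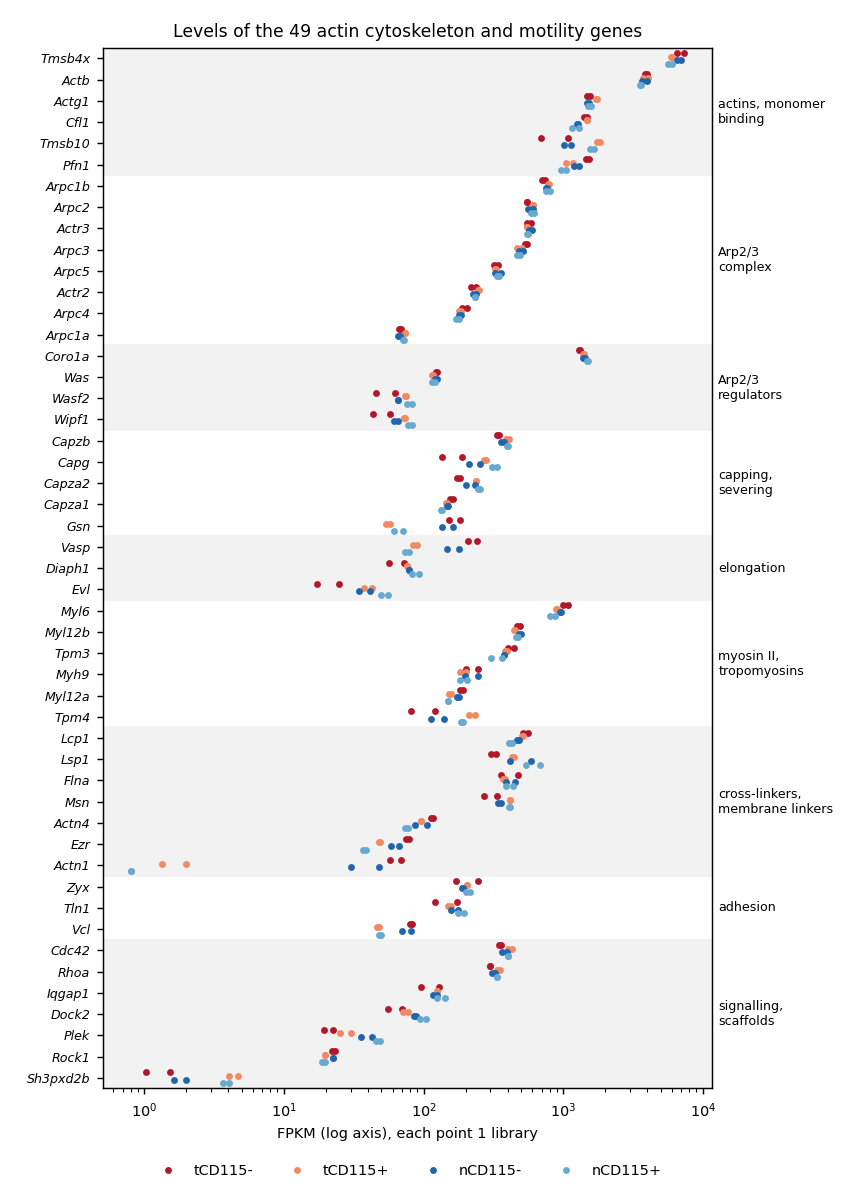
FPKM of the 49 genes (horizontal log axis) in each of the 8 libraries, 1 point per library, with genes grouped by role and ordered by mean level within a role. Points of the 4 groups lie close together for most genes, while Actn1 runs between 0.800 and 69.1 FPKM and Sh3pxd2b between 1.03 and 4.69 FPKM.

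CD115- and CD115+ cells differed in 24 of the 49 genes in EL4-bearing mice, most of them by little. In tCD115- cells 16 genes were called higher than in tCD115+ cells (32.7% of the 49, against 17.7% of all 13211 tested genes) and 8 were called lower (16.3%, against 19.9% of all tested genes). Changes of at least 2-fold were called for 3 higher genes (8.36% of all tested genes were called so) and 2 lower genes (3.97% of all tested genes). In naive mice 9 genes were called higher in nCD115- than in nCD115+ cells (18.4%, against 11.8% of all tested genes) and 1 was called lower (2.04%, against 3.23% of all tested genes), with 3 higher by at least 2-fold (5.73% of all tested genes) and none lower by at least 2-fold (0.484% of all tested genes). The median log2 fold change of the 49 genes was 0.07 in EL4-bearing mice, beside -0.05 for all tested genes, and 0.09 in naive mice, beside -0.01 for all tested genes. Fold changes stayed within 1.5-fold for 39 of the 49 genes in EL4-bearing mice (79.6%, against 67.7% of all tested genes) and for 43 in naive mice (87.8%, against 79.1%).

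These counts depend on how libraries are scaled. With library totals in place of TMM factors all tested genes had a median log2 fold change of -0.20 in EL4-bearing mice and -0.12 in naive mice, the 49 genes had medians of -0.07 and -0.02, and the calls in EL4-bearing mice were 7 higher and 11 lower. Leaving out either tCD115+ library leaves 1 library in that group. Calls in EL4-bearing mice then fell among the 49 genes and over the whole table. The median log2 fold change of the 49 genes was 0.093 without tCD115+ replicate 1 and 0.067 without tCD115+ replicate 2. In naive mice calls fell likewise without either nCD115+ library, without nCD115- replicate 2 or without either tCD115+ library. Without either tCD115- library, calls in naive mice rose among the 49 genes and over the whole table. All of the 16 other settings kept 8 of the 24 calls in EL4-bearing mice (Actn1, Gsn, Vasp, Vcl, Ezr, Pfn1, Sh3pxd2b and Tpm4) and 5 of the 10 in naive mice (Actn1, Gsn, Vasp, Vcl and Ezr). Of the gene-level calls named below, none changed sign under any of the 16 other settings tried.

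**Figure D2:**
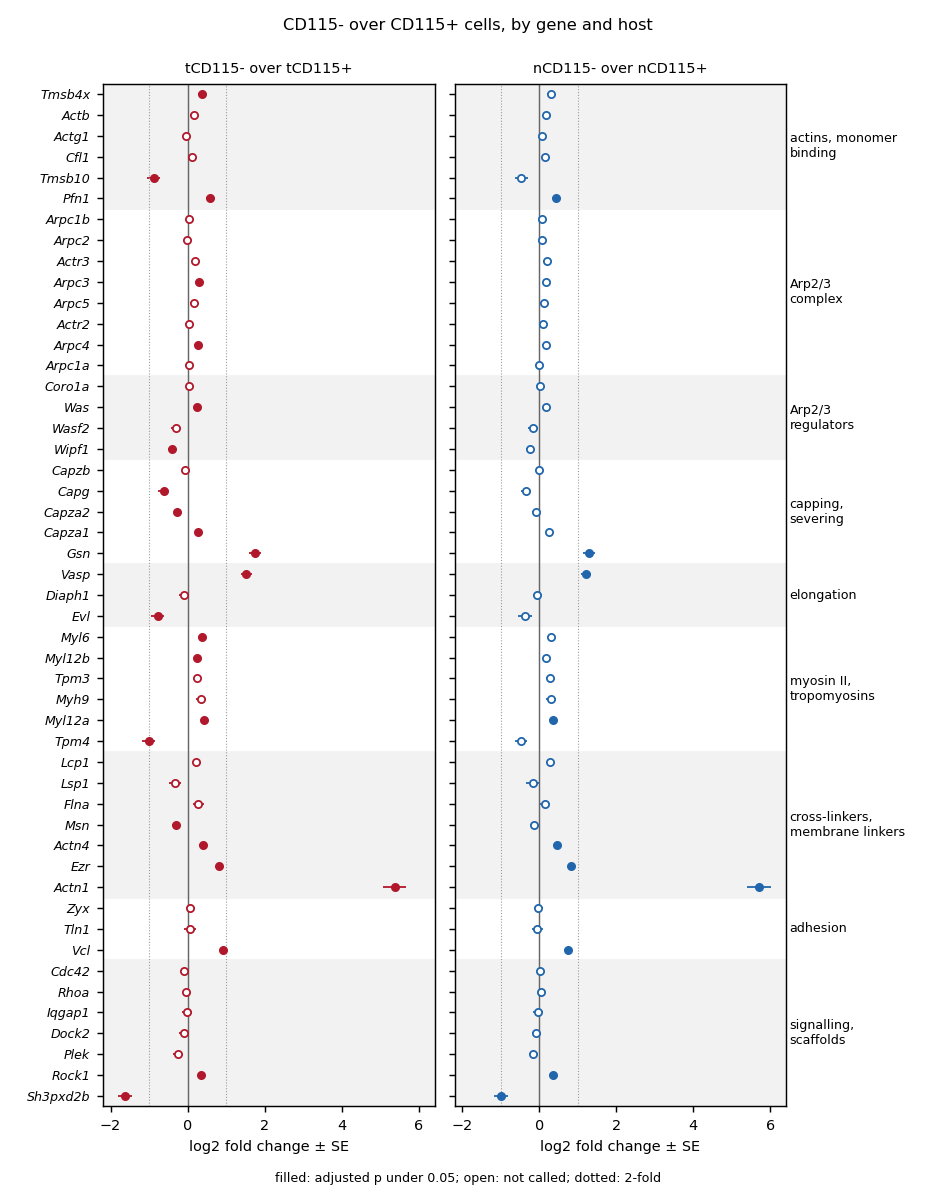
Log2 fold change (horizontal axis) of each of the 49 genes in CD115- over CD115+ cells, in EL4-bearing mice (left) and naive mice (right), with SE bars that are hidden by the point where short, filled points for adjusted p under 0.05 and dotted lines at 2-fold. Actn1 lies at 5.38 and 5.71, Gsn and Vasp lie beyond the 2-fold line on the right in both hosts, Sh3pxd2b is the lowest in both, and the Arp2/3 subunits lie close to 0.

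Actn1, which encodes alpha-actinin 1, a rod-shaped cross-linker of actin filaments that also sits in focal adhesions, differed by far more than any other of the 49 genes. It stood at 286 and 225 CPM in tCD115- libraries, against 7.33 and 4.90 CPM in tCD115+ libraries. In naive mice it stood at 117 and 189 CPM in nCD115- libraries, against 2.89 and 2.95 CPM in nCD115+ libraries. No CD115- library overlapped a CD115+ library. The log2 fold change was 5.38 (SE 0.30, adjusted p = 3.29e-05) in EL4-bearing mice, which is 41.6-fold, and 5.71 (SE 0.31, adjusted p = 3.84e-05) in naive mice, which is 52.5-fold. Among all genes averaging at least 10 CPM, 43 had a larger rise in EL4-bearing mice and 36 in naive mice. Actn4, the paralog that encodes alpha-actinin 4 and is found in motile cells, moved much less. It stood at 475 and 471 CPM in tCD115- libraries, against 357 and 355 CPM in tCD115+ libraries, and at 345 and 424 CPM in nCD115- libraries, against 268 and 288 CPM in nCD115+ libraries. Its log2 fold change was 0.41 (SE 0.10, adjusted p = 0.0186) in EL4-bearing mice and 0.47 (SE 0.10, adjusted p = 0.024) in naive mice, calls lost under 3 and 5 of 16 other settings. Actn4 shares 316 exon bases with Capn12 on the opposite strand. Per length, Actn1 made up 38.1% and 32.7% of the summed alpha-actinin FPKM in tCD115- libraries, against 2.05% and 1.39% in tCD115+ libraries, and 25.7% and 31.3% in nCD115- libraries, against 1.08% and 1.03% in nCD115+ libraries. Actn4 was thus the main alpha-actinin mRNA in every library, and nearly the only one in CD115+ cells.

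Vasp and Gsn were the other genes to rise by at least 2-fold in both hosts. Vasp encodes a protein that gathers profilin-bound actin at filament tips and shields the tips from capping. It stood at 603 and 491 CPM in tCD115- libraries, against 184 and 195 CPM in tCD115+ libraries, and at 343 and 429 CPM in nCD115- libraries, against 159 and 173 CPM in nCD115+ libraries. On the log2 scale the difference was 1.53 (SE 0.14, adjusted p = 0.000247) in EL4-bearing mice and 1.22 (SE 0.14, adjusted p = 0.00104) in naive mice, and the groups did not overlap. Gsn encodes gelsolin, which severs filaments in the presence of calcium and caps the new ends. It stood at 536 and 425 CPM in tCD115- libraries, against 149 and 138 CPM in tCD115+ libraries, and at 371 and 456 CPM in nCD115- libraries, against 154 and 185 CPM in nCD115+ libraries. In log2 units the difference was 1.74 (SE 0.16, adjusted p = 0.000233) in EL4-bearing mice and 1.29 (SE 0.15, adjusted p = 0.00137) in naive mice, again with no overlap.

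Sh3pxd2b was the gene that fell furthest. It encodes TKS4, a scaffold of podosomes and invadopodia, the actin-rich contacts with which cells digest matrix. It had the lowest mean level of the 49 genes over the 8 libraries, although Actn1 was lower in the CD115+ libraries. Sh3pxd2b stood at 8.47 and 12.02 CPM in tCD115- libraries, against 34.1 and 29.2 CPM in tCD115+ libraries, and at 15.4 and 12.8 CPM in nCD115- libraries, against 28.9 and 26.9 CPM in nCD115+ libraries. Its log2 fold change was -1.63 (SE 0.18, adjusted p = 0.000616) in EL4-bearing mice and -0.99 (SE 0.18, adjusted p = 0.00911) in naive mice, where the call was lost without nCD115- replicate 2 or without nCD115+ replicate 1 and the highest adjusted p was 0.0967. Among genes averaging at least 10 CPM, 6 fell further in EL4-bearing mice and 17 in naive mice.

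For the 5 genes called at 2-fold between tCD115- and tCD115+ cells, the bases before the RefSeq start (build GRCm38.p6) are shown, each read 5′ to 3′ on the strand of its gene. The genes were chosen by that threshold alone. The windows are chr12:80260421-80260613 for Actn1 and chr7:19271855-19272104 for Vasp, both on the minus strand, and chr2:35256109-35256358 for Gsn, chr11:32347590-32347772 for Sh3pxd2b and chr8:72135038-72135287 for Tpm4, all on the plus strand. The RefSeq promoter table counts from an inner start in Actn1 and Sh3pxd2b, and the bases between the outermost start of these genes and that inner start are not shown. Capitals mark the only matches found before these starts to 3 motifs searched on both strands, namely TTGCNNAA (the kind of site bound by C/EBP factors of the myeloid lineage), GAGGAA (the core bound by PU.1) and the CArG box (the site of SRF, a known regulator of many actin genes).
Actn1: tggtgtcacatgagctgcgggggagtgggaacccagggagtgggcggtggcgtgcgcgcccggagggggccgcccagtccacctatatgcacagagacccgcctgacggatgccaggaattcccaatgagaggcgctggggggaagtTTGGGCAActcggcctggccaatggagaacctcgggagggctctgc
Gsn: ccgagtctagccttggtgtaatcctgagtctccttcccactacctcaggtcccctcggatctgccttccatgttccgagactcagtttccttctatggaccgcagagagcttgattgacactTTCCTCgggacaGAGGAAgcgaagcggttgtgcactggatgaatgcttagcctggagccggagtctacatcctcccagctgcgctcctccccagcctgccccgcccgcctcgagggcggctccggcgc
Vasp: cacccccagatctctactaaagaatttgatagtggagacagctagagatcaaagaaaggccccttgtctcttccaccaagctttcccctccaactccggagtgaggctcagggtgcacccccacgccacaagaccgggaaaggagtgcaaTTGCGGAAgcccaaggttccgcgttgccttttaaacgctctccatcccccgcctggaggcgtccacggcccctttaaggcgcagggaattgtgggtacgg
Sh3pxd2b: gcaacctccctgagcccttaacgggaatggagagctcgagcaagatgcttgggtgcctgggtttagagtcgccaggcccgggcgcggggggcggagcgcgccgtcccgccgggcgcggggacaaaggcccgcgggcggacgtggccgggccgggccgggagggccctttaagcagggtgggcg
Tpm4: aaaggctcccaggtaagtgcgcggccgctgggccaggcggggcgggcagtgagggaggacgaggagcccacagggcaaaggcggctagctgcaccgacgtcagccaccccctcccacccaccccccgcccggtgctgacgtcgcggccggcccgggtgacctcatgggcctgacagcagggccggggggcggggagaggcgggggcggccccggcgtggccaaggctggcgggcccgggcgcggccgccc
TTGCNNAA was matched in Actn1 (on the other strand, 96 to 103 bases before the inner start) and in Vasp (93 to 100 bases before the start), GAGGAA was matched on each strand in Gsn (111 to 116 and 123 to 128 bases before the start), and Sh3pxd2b and Tpm4 have no match to any of the 3. Of the 49 genes 45 have a promoter in the RefSeq table, and no sequence was matched for Rock1, Actb, Diaph1 and Lsp1. In windows of 250 bases TTGCNNAA was found before 8 of the 45 genes (17.8%, against 10.8% of 27025 genes with a promoter), GAGGAA before 10 (22.2%, against 25.9%) and the CArG box before 4 (8.89%, against 1.62%), counting a gene once over all its annotated starts. The 8 genes with TTGCNNAA did not move one way: 4 were called higher in tCD115- cells (Actn1, Vasp, Pfn1 and Myl6), Evl was called lower and Wasf2, Rhoa and Iqgap1 were not called. A match is a stretch of letters and no sign of binding, which was not measured.

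Vcl and Ezr followed the same direction with smaller changes. Vcl encodes vinculin, which reinforces the link between talin and actin at adhesions. It stood at 460.3 and 451 CPM in tCD115- libraries, against 237 and 246 CPM in tCD115+ libraries, and at 378 and 453 CPM in nCD115- libraries, against 241 and 255 CPM in nCD115+ libraries. Vcl had a log2 fold change of 0.92 (SE 0.10, adjusted p = 0.000567) in EL4-bearing mice and 0.75 (SE 0.10, adjusted p = 0.00226) in naive mice. Vcl shares 2090 exon bases with Ap3m1 on the opposite strand, and it is not stated whether reads were counted by strand. Ezr encodes ezrin, which ties filaments to the plasma membrane and is best known from epithelia. It stood at 269 and 243 CPM in tCD115- libraries, against 144 and 146 CPM in tCD115+ libraries, and at 185 and 215 CPM in nCD115- libraries, against 113 and 111 CPM in nCD115+ libraries. Ezr had a log2 fold change of 0.82 (SE 0.09, adjusted p = 0.000712) in EL4-bearing mice and 0.83 (SE 0.09, adjusted p = 0.00101) in naive mice. Msn, which encodes moesin, the abundant relative of ezrin in leukocytes, averaged 369.9 FPKM against 56.4 FPKM for Ezr and was called lower in tCD115- cells, with a log2 fold change of -0.31 (SE 0.10, adjusted p = 0.0374), a call lost under 9 of 16 other settings. In naive mice the value for Msn was -0.13 (SE 0.10, adjusted p = 0.376).

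**Figure D3:**
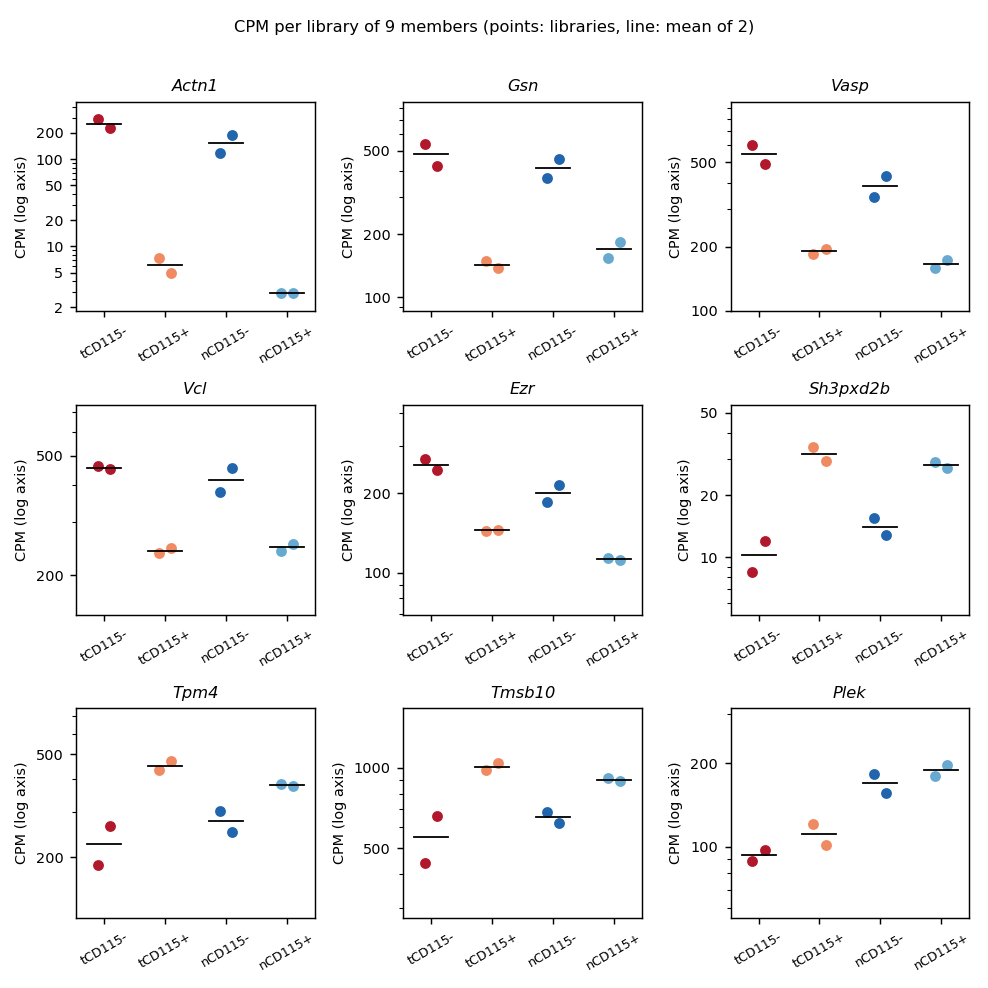
CPM (vertical log axis, scaled per panel) of 9 genes in each of the 8 libraries, with 1 point per library and a line at the mean of the 2 libraries of a group. The CD115- libraries lie above the CD115+ libraries of the same host for Actn1, Gsn, Vasp, Vcl and Ezr and below them for Sh3pxd2b, Tpm4 and Tmsb10, while the EL4 libraries lie below the naive ones for Plek.

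Within the CD115- groups, the 2 libraries differed in the same sense as their neutrophil marker sums. The library with the higher neutrophil sum in each CD115- group had the higher level of Actn1, Gsn, Vasp, Vcl and Ezr and the lower level of Sh3pxd2b, Tpm4 and Tmsb10. Of the 24 genes called in EL4-bearing mice, 19 were ordered this way in both the tCD115- and the nCD115- pair, including all 5 of the 5 called at 2-fold, and the exceptions were Arpc3, Arpc4, Capza2, Myl6 and Tmsb4x. The 19 are 79.2% of the 24, against 67.7% of the 4967 genes called over the whole table. Of the 1630 genes called at 2-fold over the whole table, 74.2% were ordered this way. The summed T and NK cell markers put these 4 libraries in the same order, and the summed monocyte markers put them in the reverse order, so the lists cannot be told apart here. With 2 libraries in a group this is a description of 4 libraries.

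The actins and their monomer-binding proteins were the most abundant of the 49 genes. Tmsb4x, which encodes thymosin beta 4, the chief store-keeper of unassembled actin in leukocytes, averaged 6375 FPKM, Actb (beta-actin) averaged 3804 FPKM and Actg1 (gamma-actin) averaged 1572 FPKM. Tmsb4x stood at 5479 and 4584 CPM in tCD115- libraries, against 3906 and 3904 CPM in tCD115+ libraries, and at 4832 and 4604 CPM in nCD115- libraries, against 3867 and 3733 CPM in nCD115+ libraries. It was called higher in EL4-bearing mice, by 0.37 on the log2 scale (SE 0.10, adjusted p = 0.0254), a call lost under 6 of 16 other settings, and not called in naive mice, at 0.31 (SE 0.10, adjusted p = 0.0757). The groups did not overlap in either host. Actb stood at 8212 and 8039 CPM in tCD115- libraries, against 6993 and 7615 CPM in tCD115+ libraries, and at 7236 and 8034 CPM in nCD115- libraries, against 6559 and 6845 CPM in nCD115+ libraries. Actg1 stood at 3107 and 3140.3 CPM in tCD115- libraries, against 3238 and 3210.2 CPM in tCD115+ libraries, and at 3001 and 2978 CPM in nCD115- libraries, against 2894 and 2823 CPM in nCD115+ libraries. Neither actin was called, with log2 fold changes of 0.15 (SE 0.09) for Actb and -0.05 (SE 0.07) for Actg1 in EL4-bearing mice and of 0.19 (SE 0.09) and 0.06 (SE 0.07) in naive mice, so the main building block of the filaments differed by less than could be called here. Actg1 made up 27.2% to 31.8% of the FPKM of both actins over the 8 libraries.

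Tmsb10 and Pfn1 moved in opposite directions. Tmsb10 encodes thymosin beta 10, a close relative of thymosin beta 4 with the same monomer-binding role. It stood at 441 and 659 CPM in tCD115- libraries, against 981 and 1039.7 CPM in tCD115+ libraries, and at 684 and 623 CPM in nCD115- libraries, against 916 and 889 CPM in nCD115+ libraries. On the log2 scale the difference was -0.88 (SE 0.17, adjusted p = 0.00658) in EL4-bearing mice and -0.47 (SE 0.17, adjusted p = 0.104) in naive mice, with no overlap between groups in either host. As a share of both thymosins per length, Tmsb10 made up 8.53% and 14.2% in tCD115- libraries, against 22.5% and 23.6% in tCD115+ libraries, and 14.0% and 13.5% in nCD115- libraries, against 21.5% and 21.6% in nCD115+ libraries. Pfn1 encodes profilin 1, which delivers monomers to growing ends. It stood at 1474 and 1335 CPM in tCD115- libraries, against 896 and 996 CPM in tCD115+ libraries, and at 1076 and 1199 CPM in nCD115- libraries, against 871 and 819.7 CPM in nCD115+ libraries. In log2 units the difference was 0.57 (SE 0.10, adjusted p = 0.00425) in EL4-bearing mice and 0.43 (SE 0.10, adjusted p = 0.0262) in naive mice, where the call was lost under 6 of 16 other settings. Cfl1, which encodes cofilin, the protein that severs aged filaments, averaged 1357 FPKM and was not called, at 0.11 (SE 0.09) in EL4-bearing and 0.15 (SE 0.09) in naive mice. Cfl1 shares 468 exon bases with Snx32 on the opposite strand.

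**Figure D4:**
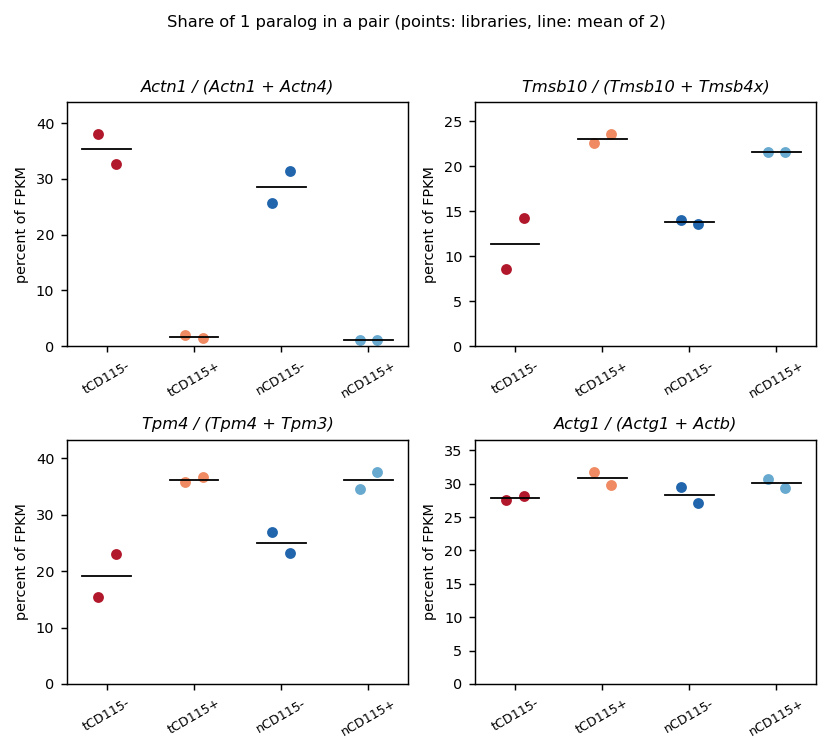
Share of 1 paralog in the summed FPKM of a pair (vertical axis in percent, from 0) in each library, for Actn1 with Actn4, Tmsb10 with Tmsb4x, Tpm4 with Tpm3 and Actg1 with Actb, with a line at the mean of the 2 libraries of a group. The first 3 shares separate the CD115- from the CD115+ libraries in both hosts, whereas the share of Actg1 lies between 27.2% and 31.8% in all 8 libraries.

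Myosin II supplies the pull and tropomyosins coat the filaments it works on. Tpm4 stood at 186 and 263 CPM in tCD115- libraries, against 434 and 470.1 CPM in tCD115+ libraries, and at 301 and 249.6 CPM in nCD115- libraries, against 382 and 378 CPM in nCD115+ libraries. Its log2 fold change was -1.01 (SE 0.16, adjusted p = 0.00333) in EL4-bearing mice, at the border of 2-fold and short of it under 7 of 16 other settings, and -0.47 (SE 0.16, adjusted p = 0.0936) in naive mice. Tpm3 averaged 381 FPKM, against 159 FPKM for Tpm4, and was not called, at 0.26 (SE 0.10) and 0.29 (SE 0.10). Tpm4 therefore made up 15.4% and 23.0% of the FPKM of both tropomyosins in tCD115- libraries, against 35.8% and 36.7% in tCD115+ libraries, and 27.0% and 23.2% in nCD115- libraries, against 34.6% and 37.6% in nCD115+ libraries. Of the myosin II subunits, the light chains Myl6 (932 FPKM on average), Myl12a (167 FPKM) and Myl12b (471 FPKM) were called higher in tCD115- cells, with log2 fold changes of 0.36, 0.42 and 0.23, and Myl12a alone was called in naive mice, at 0.35 (SE 0.08, adjusted p = 0.0299). The call on Myl12b was lost under 11 of 16 other settings, that on Myl6 under 4 and that on Myl12a in naive mice under 7. The heavy chain Myh9 (207 FPKM) was not called, at 0.35 (SE 0.14) in EL4-bearing and 0.31 (SE 0.14) in naive mice. Myl12a and Myl12b are neighbours that share 462 exon bases and a near-identical stretch, so how reads were split between them is uncertain.

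The Arp2/3 complex, whose subunits together start branched filaments, differed little between subsets. Its 8 genes summed to 3252 and 3165 FPKM in tCD115- libraries, against 3244 and 3285 FPKM in tCD115+ libraries, and to 3337 and 3174 FPKM in nCD115- libraries, against 3250.4 and 3226 FPKM in nCD115+ libraries. All 8 stayed within 1.5-fold in both hosts. Arpc3 and Arpc4 were called higher in tCD115- cells, by 0.29 (SE 0.08, adjusted p = 0.0241) and 0.26 (SE 0.08, adjusted p = 0.0453) on the log2 scale, and the calls were lost under 4 and 10 of 16 other settings. None of the 8 was called in naive mice. By mean FPKM the subunits ran from Arpc1b (763 FPKM), Arpc2 (586 FPKM), the actin-like Actr3 (564 FPKM), Arpc3 (503 FPKM), Arpc5 (336 FPKM) and Actr2 (235 FPKM) to Arpc4 (185 FPKM) and Arpc1a (69.95 FPKM). Arpc1a and Arpc1b encode alternative forms of 1 subunit, and Arpc1a made up only 7.87% to 8.90% of their FPKM over the 8 libraries. Arpc4 shares 283 exon bases with Ttll3 on the same strand, and Arpc1b shares 931 with Pdap1 on the opposite strand. Of the proteins that steer the complex, Was, the Wiskott-Aldrich protein of blood cells (120.3 FPKM), was called higher in tCD115- cells by 0.24 (SE 0.08, adjusted p = 0.0406), and this call was lost under 9 of 16 other settings. Wipf1, whose protein binds and stabilises that of Was, was called lower in tCD115- cells. It stood at 216 and 268 CPM in tCD115- libraries, against 316 and 323 CPM in tCD115+ libraries, and at 302 and 289 CPM in nCD115- libraries, against 333 and 364 CPM in nCD115+ libraries. On the log2 scale the difference was -0.40 (SE 0.11, adjusted p = 0.0252) in EL4-bearing mice, a call lost under 5 of 16 other settings, and -0.24 (SE 0.11, adjusted p = 0.176) in naive mice. Wasf2 (68.5 FPKM), of the WAVE complex that acts under Rac, and Coro1a (1404 FPKM), the leukocyte coronin, were not called, at -0.31 (SE 0.13) and 0.04 (SE 0.07) in EL4-bearing mice.

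Among capping and severing proteins, Capg was called lower beside the rise of Gsn. Capg, a calcium-dependent capping protein of macrophages, stood at 198 and 263 CPM in tCD115- libraries, against 346 and 362 CPM in tCD115+ libraries, and at 348 and 298 CPM in nCD115- libraries, against 418 and 403 CPM in nCD115+ libraries. In log2 units the difference was -0.62 (SE 0.14, adjusted p = 0.012) in EL4-bearing mice and -0.34 (SE 0.14, adjusted p = 0.133) in naive mice, and the call in EL4-bearing mice was lost under 3 of 16 other settings. Of the heterodimeric capping protein, the alpha subunit genes Capza1 (147 FPKM) and Capza2 (221 FPKM) were called in opposite directions in EL4-bearing mice, at 0.27 (SE 0.08, adjusted p = 0.0313) and -0.27 (SE 0.09, adjusted p = 0.0454), calls lost under 8 and 11 of 16 other settings. The beta subunit gene Capzb (376 FPKM) was not called, at -0.06 (SE 0.07). Capza2 made up 52.9% and 53.0% of the FPKM of both alpha subunits in tCD115- libraries, against 62.1% in each tCD115+ library, and 61.3% and 57.4% in nCD115- libraries, against 65.6% and 64.6% in nCD115+ libraries. Of the elongation factors, Evl fell where Vasp rose. Evl, a relative of Vasp that is prominent in blood cells, stood at 37.3 and 54.7 CPM in tCD115- libraries, against 83.8 and 74.1 CPM in tCD115+ libraries, and at 83.6 and 71.9 CPM in nCD115- libraries, against 94.2 and 107 CPM in nCD115+ libraries. Its log2 fold change was -0.78 (SE 0.18, adjusted p = 0.0125) in EL4-bearing mice, a call lost without tCD115+ replicate 1 and with only the libraries compared, and -0.37 (SE 0.18, adjusted p = 0.185) in naive mice. Evl shares 278 exon bases with Degs2 on the opposite strand. The formin gene Diaph1 (76.6 FPKM) was not called, at -0.10 (SE 0.11).

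The other large cross-linkers and adhesion proteins were not called between subsets. Flna, the filamin that joins filaments into nets (408 FPKM), Lcp1, the plastin of leukocytes (485 FPKM), and the leukocyte-specific Lsp1 (468 FPKM) had log2 fold changes in EL4-bearing mice of 0.27 (SE 0.14), 0.21 (SE 0.08) and -0.32 (SE 0.16). Tln1, the talin that activates integrins (163 FPKM), and Zyx, the zyxin of adhesions under tension (203 FPKM), were each at 0.07 (SE 0.15 for Tln1 and 0.11 for Zyx). Of the signalling genes, the GTPases Cdc42 (387 FPKM) and Rhoa (324 FPKM), the scaffold Iqgap1 (123 FPKM) and Dock2 (80.9 FPKM), the activator of Rac in leukocytes, lay between -0.11 and -0.01 and were not called. Rock1, the kinase that acts under RhoA to drive myosin (21.0 FPKM), was called higher in both hosts, by 0.34 (SE 0.08, adjusted p = 0.0151) and 0.35 (SE 0.08, adjusted p = 0.0278) on the log2 scale, calls lost under 3 of 16 other settings in EL4-bearing and 7 in naive mice.

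The 4 genes with a CArG box before a start belong to different roles, and only part of them moved. They are shown as the box in capitals with up to 10 bases to each side (GRCm38.p6, 5′ to 3′ on the strand of the gene), because the box is the element by which SRF is known to control actin genes. The windows are chr11:120348566-120348595 for Actg1 and chr10:128493040-128493069 for Myl6, both on the minus strand (that of Myl6 lies before an inner start), and chr14:20929161-20929190 for Vcl and chr6:113377863-113377882 for Arpc4, both on the plus strand.
Actg1: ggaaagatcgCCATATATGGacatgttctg
Myl6: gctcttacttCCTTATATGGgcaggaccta
Vcl: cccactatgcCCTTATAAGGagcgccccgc
Arpc4: CCTAATTTGGtgcccaacct
Vcl, Myl6 and Arpc4 were called higher in tCD115- cells, with log2 fold changes of 0.92, 0.36 and 0.26, and Actg1 was not called, at -0.05. In naive mice only Vcl of these 4 was called.

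The calls in naive mice lay within those in EL4-bearing mice. All 10 genes called in naive mice were also called in EL4-bearing mice in the same direction, which is 100% of the calls in naive mice and 41.7% of the calls in EL4-bearing mice, beside 93% and 37.2% over all tested genes. The 14 genes called only in EL4-bearing mice had the same sign in naive mice, as did 97.9% of all genes called only there, so in this the 49 genes lay close to the whole table. Whether the difference between subsets itself differed between hosts was tested as an interaction, which was called for none of the 49 genes and for 0% of all tested genes by edgeR's quasi-likelihood test. At an unadjusted p under 0.05 there were 2 of the 49 genes, and DESeq2 called none of them and 83 genes in all. The largest interaction values were -0.64 (SE 0.25) for Sh3pxd2b, -0.54 (SE 0.23) for Tpm4 and 0.46 (SE 0.21) for Gsn on the log2 scale, each with an adjusted p of 0.841. Leaving out tCD115- replicate 2 leaves 1 library in that group. Interactions were then called over the whole table, some of the 49 genes among them. The median interaction was then -0.044 for the 49 genes, beside -0.057 for all tested genes.

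Few of the 49 genes were called between EL4-bearing and naive hosts, which does not mean that the others were unchanged. In tCD115- over nCD115- cells none was called higher (3.19% of all tested genes were) and 2 were called lower (4.08% of the 49, against 6.49% of all tested genes). None reached 2-fold, beside 0.855% of all tested genes higher and 2.43% lower by that much. In tCD115+ over nCD115+ cells 2 were called higher (4.08%, against 6.09% of all tested genes) and 1 lower (2.04%, against 4.2%), with 1 higher by at least 2-fold (0.939% of all tested genes were) and none lower (1.66% of all tested genes were). An unadjusted p under 0.05 was found for 15 of the 49 genes among CD115- cells (30.6%, against 31.7% of all tested genes) and for 10 among CD115+ cells (20.4%, against 29.3%), and DESeq2 called 12 (24.5%, against 19.8%) and 7 (14.3%, against 16.6%). Other markers moved with the host as well. B cell markers summed to 9.17 to 14.0 CPM in the EL4 libraries, against 23.8 to 28.4 CPM in the naive libraries, and 4 of 8 were called lower in each subset. All 10 markers of cycling cells had positive log2 fold changes in both subsets, with 2 called higher in CD115- and 5 in CD115+ cells. The 12 monocyte markers had a median log2 fold change of -0.57 in CD115- cells, where 2 were called lower, and of -0.06 in CD115+ cells, where 1 was. Of the 16 neutrophil markers 4 were called higher in CD115- and 5 in CD115+ cells, and of 11 T and NK cell markers 4 were called lower in CD115+ cells. Their part in the values below was not tested.

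**Figure D5:**
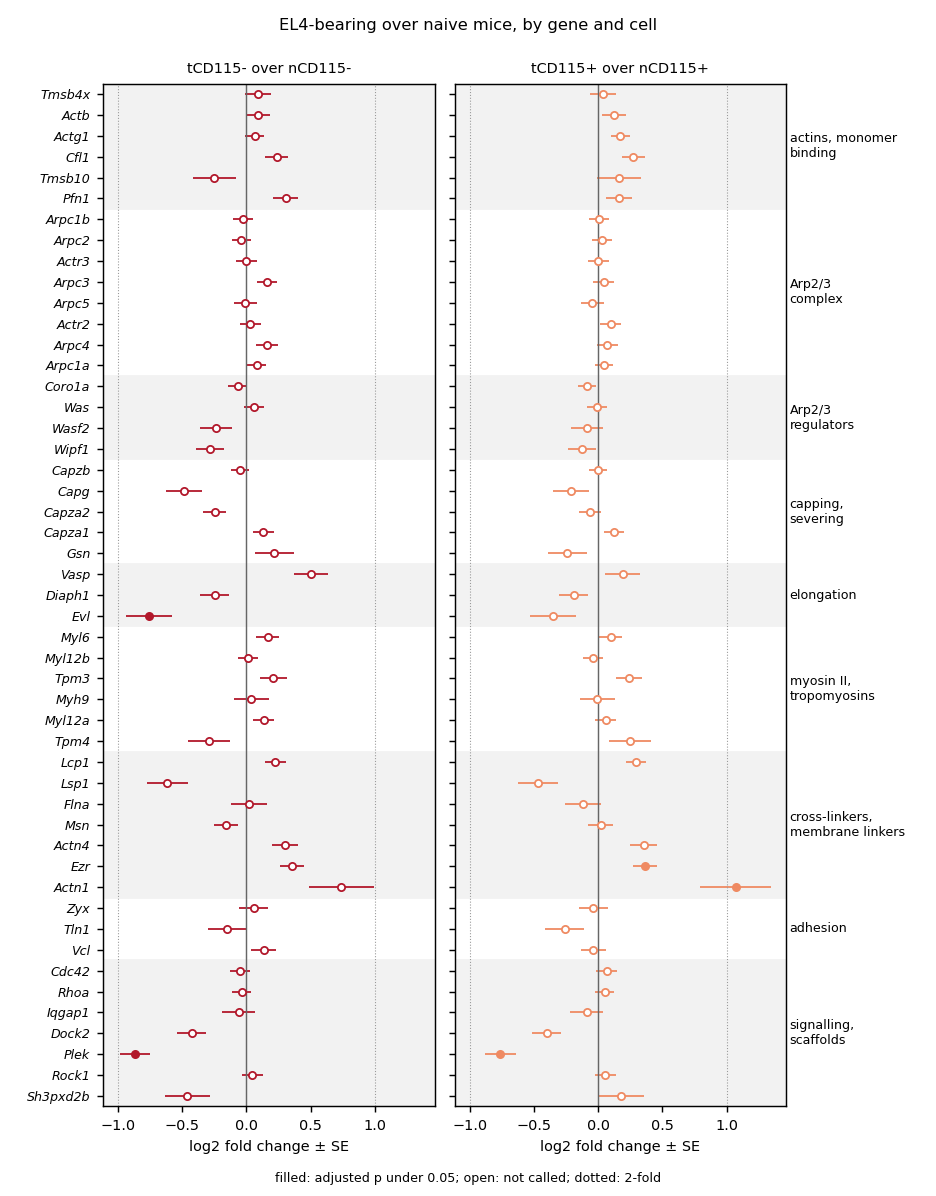
Log2 fold change (horizontal axis) of the 49 genes in EL4-bearing over naive mice, in CD115- cells (left) and CD115+ cells (right), with SE bars, filled points for adjusted p under 0.05 and dotted lines at 2-fold. Most points lie within 0.5 of 0, Plek is called lower on both sides, Evl on the left, and Actn1 and Ezr are called higher on the right.

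Plek was the 1 gene called in both subsets. It encodes pleckstrin, a major substrate of protein kinase C in platelets and leukocytes. It stood at 88.5 and 97.6 CPM in tCD115- libraries, against 183 and 157 CPM in nCD115- libraries, and at 121 and 101 CPM in tCD115+ libraries, against 180.3 and 197 CPM in nCD115+ libraries. All 4 EL4 libraries lay below all 4 naive libraries. The log2 fold change was -0.87 (SE 0.12, adjusted p = 0.0114) in CD115- cells and -0.76 (SE 0.12, adjusted p = 0.0154) in CD115+ cells, and between CD115- and CD115+ cells Plek was not called in either host. Leaving out nCD115- replicate 1, or fitting only the libraries compared, ended the call in CD115- cells, and leaving out any 1 of the 4 CD115+ libraries ended that in CD115+ cells, with the log2 fold change between -0.98 and -0.64 throughout. Plek shares 199 exon bases with Cnrip1 on the opposite strand. Dock2 had values of the same sign that were not called, at -0.43 (SE 0.11, adjusted p = 0.0522) and -0.40 (SE 0.11, adjusted p = 0.0608), and so had Lsp1, at -0.62 (SE 0.16, adjusted p = 0.0502) and -0.47 (SE 0.16, adjusted p = 0.0991). Evl was called lower in CD115- cells, at -0.76 (SE 0.18, adjusted p = 0.0402), and this call was lost under 8 of 16 other settings. In CD115+ cells the value for Evl was -0.35 (SE 0.18, adjusted p = 0.23).

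Actn1 and Ezr were called higher in tCD115+ than in nCD115+ cells. For Actn1, at 7.33 and 4.90 CPM against 2.89 and 2.95 CPM, the log2 fold change was 1.07 (SE 0.28, adjusted p = 0.0495). For Ezr, at 144 and 146 CPM against 113 and 111 CPM, it was 0.37 (SE 0.09, adjusted p = 0.0481). Both calls were lost under 9 of 16 other settings, leaving out any of the 4 CD115+ libraries among them, and the neutrophil markers summed to 3119 and 2564 CPM in tCD115+ libraries, against 1679 and 1463 CPM in nCD115+ libraries. In CD115- cells the values were 0.74 (SE 0.25, adjusted p = 0.0922) for Actn1 and 0.35 (SE 0.09, adjusted p = 0.0528) for Ezr. The 8 genes of the Arp2/3 complex, Actb and Actg1 stayed within 1.5-fold in both subsets. Without tCD115- replicate 2, which leaves 1 library in that group, calls in CD115- cells rose among the 49 genes and over the whole table. The median log2 fold change there was 0.054 for the 49 genes, beside -0.0052 for all tested genes. With any 1 of the 4 CD115+ libraries left out, calls in CD115+ cells fell among the 49 genes and over the whole table.

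A wider list of 84 other actin genes, of which 82 were in the table and 78 were tested, was read for comparison. It too was chosen with earlier results of these data known. In tCD115- over tCD115+ cells 29 of the 78 were called higher (37.2%, against 17.7% of all tested genes) and 14 lower (17.9%, against 19.9%), with a median log2 fold change of 0.18. In naive mice 14 were called higher (17.9%, against 11.8%) and 1 lower (1.28%, against 3.23%), with a median of 0.11. Of those averaging at least 10 CPM, 4 were called higher by at least 2-fold in EL4-bearing mice. Marcksl1, which encodes a substrate of protein kinase C that binds filaments at the membrane, stood at 221 and 152 CPM in tCD115- libraries, against 24.2 and 26.2 CPM in tCD115+ libraries, and at 94.8 and 121 CPM in nCD115- libraries, against 27.4 and 26.5 CPM in nCD115+ libraries. On the log2 scale the difference was 2.89 (SE 0.19, adjusted p = 6.48e-05) in EL4-bearing and 2.01 (SE 0.19, adjusted p = 0.000428) in naive mice. Limk2, whose kinase inactivates cofilin, Rac2, the Rac GTPase of blood cells, and Parvg, the parvin of leukocyte adhesions, had log2 fold changes of 1.37 (SE 0.15), 1.14 (SE 0.11) and 1.07 (SE 0.13) in EL4-bearing mice, all called. Rac2 is the most abundant of them, at 1814 and 1496 CPM in tCD115- libraries, against 765 and 740.2 CPM in tCD115+ libraries. Parvg was called at 2-fold in naive mice as well, at 1.13 (SE 0.13, adjusted p = 0.00101). Limk2 and Rac2 did not meet that rule there, which does not mean that they were unchanged. In naive mice Rac2 stood at 1211 and 1361 CPM in nCD115- libraries, against 704 and 689 CPM in nCD115+ libraries. Genes under 10 CPM on average, named here after their values were seen, were Fmnl2 (3.60) and Enah (1.49), called higher in tCD115- cells, and Sh3pxd2a (-1.26), Pls3 (-1.21) and Tln2 (-1.17), called lower on the log2 scale. Sh3pxd2a encodes TKS5, the relative of the protein of Sh3pxd2b. The call on Enah was lost under 4 of 16 other settings and that on Sh3pxd2a under 1. Between hosts, Tln2 was called higher in EL4-bearing mice, at 1.90 in CD115- and 2.45 in CD115+ cells, and Sh3pxd2a lower, at -1.47 and -1.13. These calls were lost under 2 and 1 of 16 other settings for Tln2 and under 3 and 6 for Sh3pxd2a. In all, 2 of the 78 were called higher (2.56%, against 3.19% of all tested genes) and 6 lower (7.69%, against 6.49%) in tCD115- over nCD115- cells, and 4 higher (5.13%, against 6.09%) and 5 lower (6.41%, against 4.2%) in tCD115+ over nCD115+ cells.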

How the data were processed

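Sorted bone marrow cells of 8 samples in 4 groups were sequenced from a stranded mRNA library kit. The authors deposited raw read counts per gene and FPKM, and the labels and processing notes name HISAT2 2.0.5, StringTie 1.3.3b and build mm10, while the sources used here do not say whether the counting used strand. Another 12 deposited columns of log2 values and group means per sample or group were not used, nor were the authors' own fold changes and p-values. The counts were fitted with edgeR 4.0.16 in R 4.3.3 (filterByExpr, TMM factors, robust glmQLFit with 1 mean per group over all 8 libraries, glmQLFTest, Benjamini-Hochberg adjustment over 13211 genes, 4 residual degrees of freedom). The SE of a log2 fold change is its size divided by the root of the F statistic. Scripts were tested on simulated data. DESeq2 1.42.0, other scalings, filters, subsets of libraries and a replicate block were the alternatives.

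The 49 genes, their roles, the other actin genes and the marker lists were chosen with earlier results of these data known. Values in every library are given for genes called at 2-fold, for up to 6 per direction and comparison with the largest called change, and for the 3 highest in FPKM. Of the other actin genes, up to 4 per direction and comparison called at 2-fold with at least 10 CPM are named. Gene positions, promoters and near-identical transcripts came from RefSeq (GRCm38.p6), GENCODE M21 and BLAST+ 2.17.0 (at least 95% identity over 100 bases). By this measure 18 of the 49 genes have a near-identical stretch in another gene, 7 of them in a gene of the table. The study's replicates are biological. The p-values rest on the spread within all 4 groups of 2 libraries, shared across genes, and not only on that of the libraries compared.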

Additional observations from a re-analysis of the deposited data

How the results depend on the processing

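The 5 calls at 2-fold in tCD115- over tCD115+ cells and the 3 in nCD115- over nCD115+ cells stayed within 1.5 times their number under all 16 alternatives, and of 880 gene-level alternatives for the called genes named, 714 kept the call, 166 lost it and 0 changed sign. In tCD115- over tCD115+ cells the 24 calls became 11 with only the libraries compared and ranged from 9 to 27 when 1 library was left out. The median log2 fold change of the 49 genes became -0.070 with library totals, 0.11 with DESeq2 or its size factors, 0.12 with only the libraries compared and 0.083 where each library needed 10 counts, and ranged from 0.067 to 0.11 without 1 library. In nCD115- over nCD115+ cells the 10 calls became 16 with DESeq2 and 19 with only the libraries compared, ranged from 5 to 22 without 1 library, and the median became -0.018 with library totals. In tCD115- over nCD115- cells the 2 calls became 12 with DESeq2, 5 where each library needed 10 counts and 0 with only the libraries compared, and ranged from 0 to 20 without 1 library, with 0 to 1 at 2-fold. In tCD115+ over nCD115+ cells the 3 calls became 7 with DESeq2, 13 with only the libraries compared, and 1 with DESeq2 size factors, with no filter or with the replicate block, and ranged from 0 to 8 without 1 library. The 1 call at 2-fold there became 0 with DESeq2 size factors, with no filter and with the replicate block, and 0 to 1 without 1 library, and the median became 0.0015 with DESeq2 size factors, 0.00047 with DESeq2 and 0.0072 with only the libraries compared, ranging from 0.0063 to 0.055 without 1 library. The interaction gave 0 to 4 calls without 1 library, and its median became 0.025 with DESeq2 size factors, 0.026 with DESeq2 and -0.060 with library totals, ranging from -0.060 to 0.0097 without 1 library. The cause of these shifts was not tested.

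Replicate numbers are shared by the groups, but deviations of same-numbered libraries correlated at only -0.099 to 0.078, so the numbers were not read as pairs. With the replicate block the calls were 23, 11, 2 and 1 in the order of the comparisons above, beside 4940, 1773, 1000 and 1147 over the whole table. Depth limits these genes little, since the lowest counts in a library were 257 reads for Actn1 and 714 reads for Sh3pxd2b.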
